A study of Caenorhabditis elegans with 2 samples.

Results

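The genes for small nucleolar RNAs (snoRNAs) of Caenorhabditis elegans were examined for binding of CEH-31, a Bar-class homeodomain protein, in late embryos. All 346 genes of biotype snoRNA on the autosomes and X in Ensembl release 115 (WBcel235) were taken, of 46890 annotated genes. A gene was counted as bound where the summit of a peak lay in it or within 200 bp of either end. Of the 346 genes, 150 lay wholly in an intron of a protein-coding gene on the same strand, in 130 host genes, and are called intronic. The other 196 are called independent: 124 overlapped no protein-coding gene, 38 overlapped one on the opposite strand only, and 34 overlapped one on the same strand without lying wholly in an intron. The genes were 54 to 344 nt long, with a median of 130 nt. All 346 were found by name in the RefSeq annotation, which lists 345 of them as snoRNA.

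The data were from chromatin immunoprecipitation with sequencing (ChIP-seq) in 1 group of 2 biological replicates of whole hermaphrodite worms of strain OP370, collected as late embryos 5 hours after synchronization by egg bleaching. The strain carries unc-119(tm4063) on III and the insertion wgIs370, which expresses CEH-31 with a GFP-FLAG tag at its C terminus, and the description names an anti-GFP antibody, while the antibody field of the labels reads ceh-31. Worms without the tagged protein and worms of other stages were not analysed here, so every value describes peaks of the immunoprecipitation as labelled, in this strain, and cell types cannot be told apart in whole embryos. The list deposited as optimal after a check of reproducibility between replicates (IDR) held 3697 peaks. The relaxed lists that served as its input, named as holding peaks and background, had 24555 entries for the pooled reads, 21175 for replicate 1 and 22471 for replicate 2. Peak strength is the signal column of these lists, which ranks peaks within a list and has no stated unit.

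snoRNAs guide the chemical modification of ribosomal RNA and small nuclear RNA. Those with the short boxes C and D direct 2′-O-methylation by fibrillarin, and those with boxes H and ACA direct the conversion of uridine to pseudouridine by dyskerin. In vertebrates most snoRNAs lie in introns and are cut out of the host transcript, whereas many snoRNA genes of worms, intronic ones included, are known to carry promoter elements of their own. Some of these resemble the promoters of tRNA genes, in which boxes A and B recruit the factor TFIIIC for RNA polymerase III, and RNA polymerase III stops at a run of T.

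9 snoRNA genes are shown to make these letters visible: sequences run from 70 bases before the annotated gene to 15 bases after it, 5′ to 3′ on the gene strand, from the RefSeq genome of build WBcel235. Capitals mark the core of box B (GTTCNANNC), the core of box A (TGGCNNAG), both searched up to 20 bases into the gene, and runs of at least 4 T in the 15 bases after the gene. The first lines are independent genes with an optimal summit, W03C9.9 (chrII:11960828-11960974, plus strand) and T03F7.8 (chrV:11314188-11314347, plus strand). They are followed by the intronic genes Y43F8C.22 (chrV:19643035-19643257, minus strand), Y38F2AR.14 (chrIV:2408493-2408705, minus strand), F55A11.10 (chrV:11782922-11783097, plus strand), T24H7.6 (chrII:6248647-6248870, plus strand) and M106.6 (chrII:10840247-10840406, plus strand), all with an optimal summit and box B letters. ZK994.7 (chrV:8500509-8500660, plus strand) is an intronic gene with an optimal summit and neither set of box letters. K12D12.8 (chrII:11876561-11876717, plus strand) is an intronic gene of similar length with no summit in the pooled list. It shares an intron of 345 bp of top-2 with the snoRNA genes K12D12.6 and K12D12.7. Most of the bases shown before K12D12.8 lie in K12D12.7. K12D12.8 was picked from genes of at most 80 nt with box D and without the box B core, so its lack of box B letters was set by the choice. Most genes shown have box B letters, whereas 26 of the 71 snoRNA genes with an optimal summit do. The box A letters of W03C9.9 begin before the bases shown.
W03C9.9: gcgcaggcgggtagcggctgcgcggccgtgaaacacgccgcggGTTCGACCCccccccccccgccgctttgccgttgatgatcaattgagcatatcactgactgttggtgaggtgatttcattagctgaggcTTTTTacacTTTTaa
T03F7.8: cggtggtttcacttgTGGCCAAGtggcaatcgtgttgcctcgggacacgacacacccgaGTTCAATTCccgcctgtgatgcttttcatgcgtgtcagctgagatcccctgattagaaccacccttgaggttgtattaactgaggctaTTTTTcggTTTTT
Y43F8C.22: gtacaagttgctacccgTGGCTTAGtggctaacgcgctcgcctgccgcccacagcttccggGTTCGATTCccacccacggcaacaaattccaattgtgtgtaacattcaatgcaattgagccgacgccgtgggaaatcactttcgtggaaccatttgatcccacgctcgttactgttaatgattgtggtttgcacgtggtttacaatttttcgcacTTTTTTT
Y38F2AR.14: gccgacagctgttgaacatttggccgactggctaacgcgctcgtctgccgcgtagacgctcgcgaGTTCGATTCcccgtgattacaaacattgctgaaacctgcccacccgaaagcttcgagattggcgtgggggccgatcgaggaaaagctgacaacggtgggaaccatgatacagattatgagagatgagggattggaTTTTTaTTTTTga
F55A11.10: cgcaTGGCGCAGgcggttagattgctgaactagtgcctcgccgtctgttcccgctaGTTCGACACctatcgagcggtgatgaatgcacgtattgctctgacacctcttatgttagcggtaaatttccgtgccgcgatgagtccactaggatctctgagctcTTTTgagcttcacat
T24H7.6: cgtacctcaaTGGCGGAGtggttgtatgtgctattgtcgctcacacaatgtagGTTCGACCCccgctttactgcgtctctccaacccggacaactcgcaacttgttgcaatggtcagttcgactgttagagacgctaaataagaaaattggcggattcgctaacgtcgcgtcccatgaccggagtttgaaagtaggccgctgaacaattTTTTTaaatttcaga
M106.6: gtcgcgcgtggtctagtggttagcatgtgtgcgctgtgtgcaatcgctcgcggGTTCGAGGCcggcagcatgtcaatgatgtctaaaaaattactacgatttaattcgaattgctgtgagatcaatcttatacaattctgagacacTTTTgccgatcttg
ZK994.7: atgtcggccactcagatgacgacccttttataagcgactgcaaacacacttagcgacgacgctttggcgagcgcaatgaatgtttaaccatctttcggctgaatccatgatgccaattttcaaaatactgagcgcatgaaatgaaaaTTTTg
K12D12.8: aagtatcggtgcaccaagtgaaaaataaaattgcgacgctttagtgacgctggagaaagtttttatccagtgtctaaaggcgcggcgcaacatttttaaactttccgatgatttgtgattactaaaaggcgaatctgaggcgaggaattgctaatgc

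An optimal summit lay within 200 bp of 71 of the 346 snoRNA genes (20.5%, 95% Wilson interval 16.6% to 25.1%). With the same extension the share was 6.68% of all annotated genes (3131 of 46890) and 9.52% of protein-coding genes, which are much longer. Of all annotated genes, 19704 are on IV, with a median length of 21 bp and a share of 2.54%. On each of the other chromosomes the share was between 5.98% and 13.0%, so the background of 6.68% is lowered by the genes on IV. Among other genes for short RNAs it was 24.2% for tRNA genes (148 of 612), 9.30% for snRNA genes (12 of 129) and 3.83% for miRNA genes (10 of 261). Thus the share for snoRNA genes was near that for tRNA genes. These intervals cover counting error over genes, not the spread between worms, and genes are not replicates. No test was made, since the design has 1 group.

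**Figure D1:**
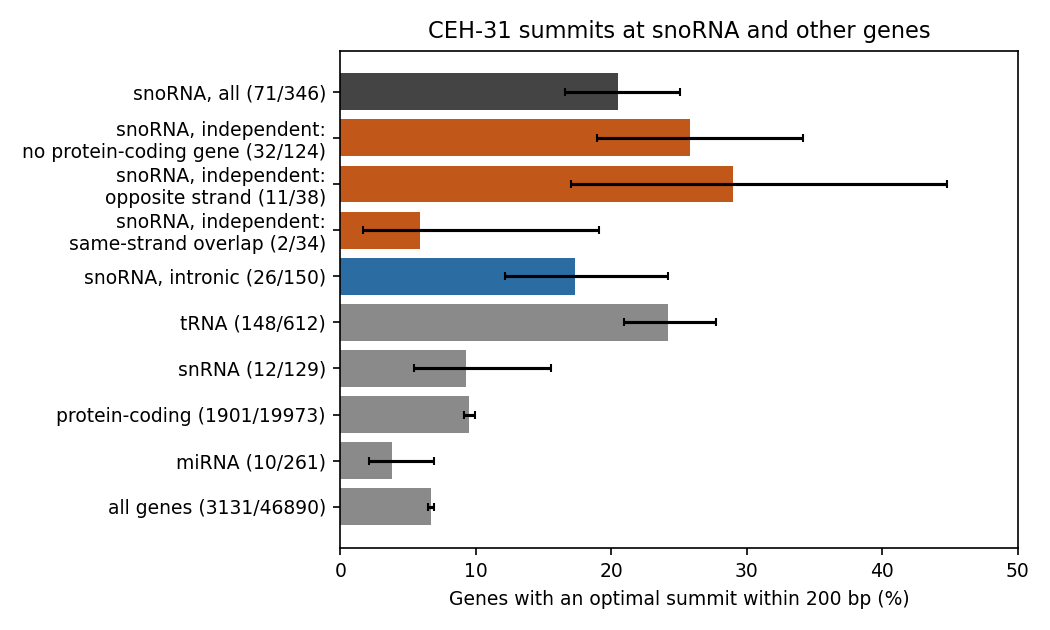
Share of genes of each kind with an optimal summit in the gene or within 200 bp of it, in percent. Bars start at 0, error bars are 95% Wilson intervals, and the numbers in brackets are genes with a summit and genes in all. The snoRNA genes reach 20.5%, tRNA genes 24.2% and all genes 6.68%.

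Both intronic and independent snoRNA genes carried summits. The count was 45 of 196 independent genes (23.0%, interval 17.6% to 29.3%) and 26 of 150 intronic genes (17.3%, interval 12.1% to 24.2%), and these intervals overlap. Within the independent genes, 32 of 124 with no protein-coding gene (25.8%), 11 of 38 on the strand opposite to one (28.9%) and 2 of 34 with a same-strand overlap (5.88%) had an optimal summit. The 71 genes were 70 distinct peaks, because the neighbours C51F7.3 and C51F7.4 share one. The 346 windows merged into 326 separate loci, and 70 of these held an optimal summit. The 70 summits made up 1.89% of the optimal list in windows that cover 182.2 kb, or 0.182% of the genome, which is 38.4 summits per 100 kb against 3.69 over the genome.

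The relaxed lists added weaker peaks. A pooled summit lay within 200 bp of 127 snoRNA genes (36.7%), against 26.5% of all genes, so 56 snoRNA genes had a relaxed summit only and 219 had none. The pooled signal of those 56 ran from 25.6 to 88.0 with a median of 44.1. The optimal list as a whole starts at a signal of 90.5, so that these values lie below it is set by the list and is no property of snoRNA genes. Both replicate lists held a summit for 99 snoRNA genes, 1 list held one for 57, and neither did for 190.

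By chromosome, the share of snoRNA genes with an optimal summit was highest on V, with 16 of 55 (29.1%), and on I, with 19 of 74 (25.7%), followed by 16 of 71 on II (22.5%) and 13 of 59 on IV. It was 6 of 54 on III (11.1%) and 1 of 33 on X (3.03%, interval 0.537% to 15.3%), where D2021.6, an independent gene, was the one gene with an optimal summit, of signal 219. Over all annotated genes the order was partly another: 13.0% on I, 12.8% on III, 10.8% on X, 8.98% on II, 5.98% on V and 2.54% on IV. Chromosome I was thus high in both. The genes compared also differ, with a median length of 21 bp on IV and 279 bp on X, against 1245 to 1532 bp on the others. On X, 6 further snoRNA genes had a relaxed pooled summit and 26 had none. These differences between chromosomes were not tested.

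The summits lay just upstream of the snoRNA genes. Of the 71 genes, 65 (91.5%) had their summit upstream of the annotated 5′ end, 4 inside the gene and 2 downstream of it. The median position was -45 bp from the 5′ end, where negative is upstream, with the middle 50% between -63.5 and -27 bp. The summit lay within 100 bp upstream at 58 genes in all (81.7%), 25 of the 26 intronic ones and 33 of the 45 independent ones. The median was -41 bp for intronic genes (range -92 to 103) and -47 bp for independent genes (range -189 to 238). In the 100 bp before the 5′ end there were 16.8 summits per 100 independent genes and 16.7 per 100 intronic genes, against 1.62 per 100 protein-coding genes. For tRNA genes, whose boxes A and B are inside the gene, the same interval held 8.33 summits per 100 genes and the 100 bp from the 5′ end onwards held 13.1. Summits of protein-coding genes were most frequent farther upstream, at 2.81 per 100 genes from 200 to 101 bp before the start.

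**Figure D2:**
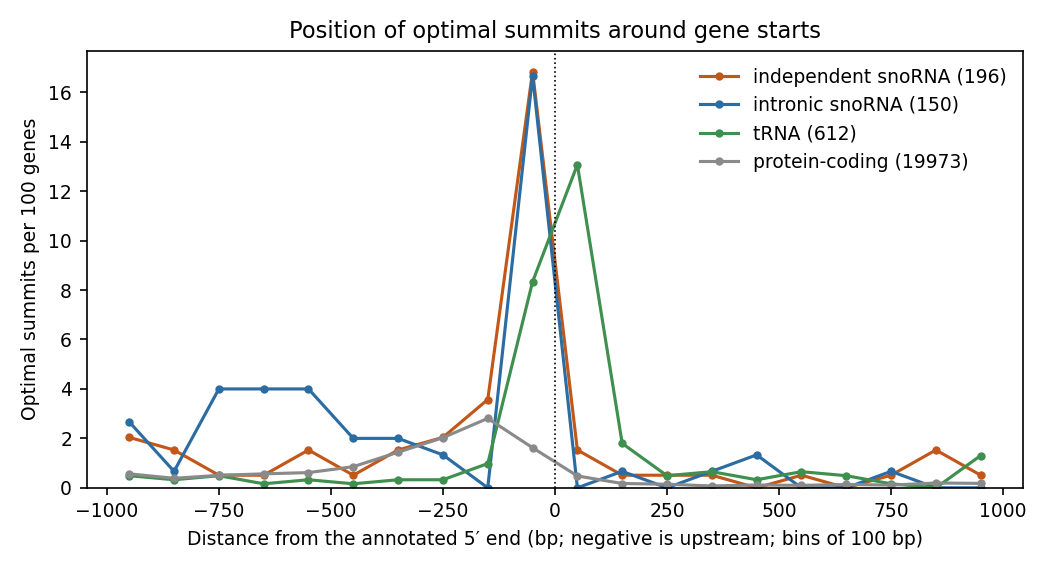
Optimal summits per 100 genes (y axis) in bins of 100 bp around the annotated 5′ end (x axis, bp, negative upstream) for independent and intronic snoRNA genes, tRNA genes and protein-coding genes. Both snoRNA lines peak in the bin just upstream of the 5′ end, at 16.8 and 16.7, and the tRNA line peaks in the next bin, at 13.1.

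At the 200 bp limit, the members with the most distant summits were ZK930.15 (189 bp away, signal 152), F30A10.16 (133 bp, signal 140) and F59C6.15 (122 bp, signal 750). The nearest genes outside it were W06H8.17 (201 bp), C02F5.15 (206 bp) and F54E7.10 (229 bp). In the replicate 2 list, W06H8.17 had a summit within its window, with a signal of 239.

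Both replicates held all 71 genes. The optimal list was itself made from the replicates, so their presence in both is a description and not a separate check. A summit within 200 bp was among the 3697 strongest peaks of both replicates for 64 of the 71 genes and of 1 replicate for the other 7. Across the 71 genes the signal in replicate 1 ran from 27.4 to 388 with a median of 100.6, and in replicate 2 from 41.9 to 361 with a median of 105.5. It was higher in replicate 2 for 42 of 71 genes, and for 19 of the 26 intronic ones. Over the 70 distinct peaks the replicate signals had a Spearman coefficient of 0.878 and a Pearson coefficient of 0.886 on the log2 scale, given as a description of peaks that share 2 libraries. The summits of the replicates were a median of 16 bp apart, at most 117 bp, and within 50 bp for 61 of the 71 genes. C08D8.3, an intronic gene, had the widest difference in rank, with a signal of 27.4 in replicate 1 (rank 8666) and 57.5 in replicate 2 (rank 2896).

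**Figure D3:**
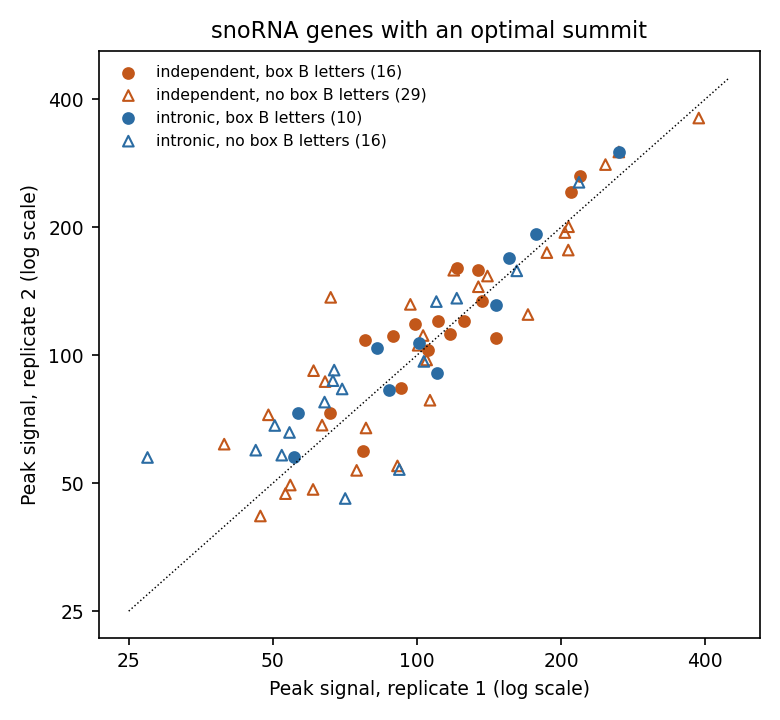
Peak signal in replicate 1 (x axis) and replicate 2 (y axis), both on log scales, for the 71 snoRNA genes with an optimal summit. Colours separate independent from intronic genes, filled circles have the box B letters, open triangles do not, and the dotted line marks equal values. The points follow the line from about 50 to 388, and C08D8.3 lies lowest in replicate 1, at 27.4.

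Peaks at snoRNA genes spanned nearly the whole optimal list, from rank 22 to rank 3691, and most were above its median. Their median signal was 204.0 (range 90.7 to 750), the median of all 3697 optimal peaks was 148.5, 48 of the 71 were above that median and 12 were among the 369 strongest. The median was 218.1 for independent and 160.5 for intronic genes. The values of the named genes below are descriptions, since the genes were ranked by them.

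The strongest peak at an independent gene was at F59C6.15 on I, where the optimal signal was 750 and replicates 1 and 2 gave 388 (rank 19) and 361 (rank 28). Its summit lay 122 bp upstream of the snoRNA gene and also in the promoter window of the protein-coding gene F59C6.18, where a promoter window runs from 1000 bp upstream to 200 bp downstream of a gene start. F39B2.14 on I (signal 524, replicates 248 and 281) was likewise in the windows of tmem-107 and of the ribosomal protein gene rps-26, and M7.15 on IV (signal 410, replicates 207 and 200) in those of the kinesin light chain gene klc-1 and the ubiquitin-conjugating enzyme gene let-70. For these 3 genes the peak cannot be assigned to the snoRNA gene rather than to its neighbour.

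Most of the other strong independent peaks were away from protein-coding starts. W03C9.9 on II, 62 nt long, had a signal of 492 and values of 220 and 264 in replicates 1 and 2, with its summit 63 bp upstream of the gene, and T03F7.8 on V, opposite to the gene cutl-18, had 454, 210 and 242 with its summit 43 bp upstream. Both genes carried the box A and box B letters and a T run, as the first lines of sequence above show. ZK20.9 on II had 393 (replicates 204 and 194) without either set of box letters, and T06C12.16 on V had 383 (207 and 177) with the box A letters alone. ZK484.9 (307, replicates 134 and 158) and F32E10.10 (284, replicates 121 and 161) had the box B letters, and C46C2.8 (295, replicates 140 and 154) had neither. ZK265.10 (361, replicates 187 and 174) lay in the window of the chemoreceptor gene sre-23.

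In introns the strongest peak was that shared by C51F7.3 and C51F7.4 in frm-7, a gene for a FERM domain protein. It had a signal of 568, with 264 in replicate 1 (rank 83) and 301 in replicate 2 (rank 60). The summit lay 70 bp upstream of C51F7.3, and 39 bp inside C51F7.4, which overlaps frm-7 without lying wholly in an intron. ZK994.7, in an intron of 341 bp of the peroxidasin gene pxn-1, followed with 477 (replicates 218 and 255) and a summit 26 bp upstream of the snoRNA gene. Y43F8C.22 in Y43F8C.7 had 370 (replicates 177 and 193), Y38F2AR.14 in Y38F2AR.12 had 324 (156 and 169), and D1046.6 in cfim-2, a gene for a pre-mRNA cleavage factor, had 321 (162 and 158).

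The other 7 named intronic genes had signals from 278 down to 194. They were F55A11.10 (278, replicates 146 and 131), C27H6.5 in the stonin gene unc-41 (257, replicates 121 and 136), C10C6.8 in the ATPase gene catp-8 (241, replicates 110 and 134) and T24H7.6 in T24H7.2 (211, replicates 101 and 107). T08B2.13 in fars-1, for a subunit of phenylalanyl-tRNA synthetase, and F38E11.14 in the channel gene cng-3 each had 200, and M106.6 in mix-1, for a condensin subunit, had 194 (replicates 82.7 and 104). Their hosts thus ranged over enzymes, channels and chromosome structure, and their introns were as short as 201 bp at F55A11.10.

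The weakest optimal peak at a snoRNA gene had a signal of 90.7, just above the 90.5 at which the optimal list starts. The strongest snoRNA genes without an optimal summit had pooled signals below that start, which is set by the list. Among independent genes they were T28B8.11 (88.0), F25H2.15 (87.3) and C36E8.11 (83.8), with replicate signals between 36.0 and 51.3. Among intronic genes they were H06I04.9 in the ubiquitin-like gene ubl-1 (67.5), F01D5.12 (65.7) and Y71D11A.7 (65.0), and H06I04.9 had no summit in replicate 1. H06I04.9 begins 176 bp from the start of ubl-1, so its peak cannot be assigned to it rather than to the host start.

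Summits at intronic snoRNA genes lay outside the promoter windows of their hosts, each set at the outermost annotated start of the gene. Starts of shorter transcripts were not examined. None of the 26 intronic summits lay in the promoter window of its own host. The 5′ ends of these snoRNA genes were a median of 3288 bp from the host start (range 678 to 16071). Of all 71 genes, 49 (69.0%) had their summit outside every protein-coding promoter window, 21 of the 26 intronic and 28 of the 45 independent ones. Over the 70 distinct summits it was 48 (68.6%). The other 5 intronic genes had their summit in the window of a neighbour, such as mrpl-23 for T08B2.13 and wrt-3 for F38E11.14. No tRNA gene and no snRNA gene lay within 200 bp of any of the 71, while an annotated ncRNA gene lay near 20 and a pseudogene near 3.

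Introns with a snoRNA gene carried optimal summits more often than the other introns of the same hosts. With overlapping introns of a gene counted once, a choice made after seeing the data, 35 of 137 introns with a snoRNA gene had a summit (25.5%, interval 19.0% to 33.4%), against 20 of 1029 others (1.94%, interval 1.26% to 2.98%). Over every intron of every protein-coding gene the share was 0.841%. A summit anywhere in the intron was counted, also one more than 200 bp from the snoRNA gene. The 35 introns are thus not a count of summits at snoRNA genes, which 26 intronic genes had within 200 bp. Since longer introns can hold more summits, the shares were also set side by side within classes of length. From 200 to under 500 bp they were 19 of 60 (31.7%) and 0 of 160, where 0 allows an upper Wilson bound of 2.34%, and from 500 to under 1000 bp 4 of 17 (23.5%) and 5 of 144 (3.47%). At 1000 bp or more they were 12 of 40 (30.0%) and 15 of 128 (11.7%), with overlapping intervals. Among introns of at least 200 bp outside the host's promoter window, now counting each intron of each transcript, they were 35 of 110 (31.8%) and 25 of 469 (5.33%).

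**Figure D4:**
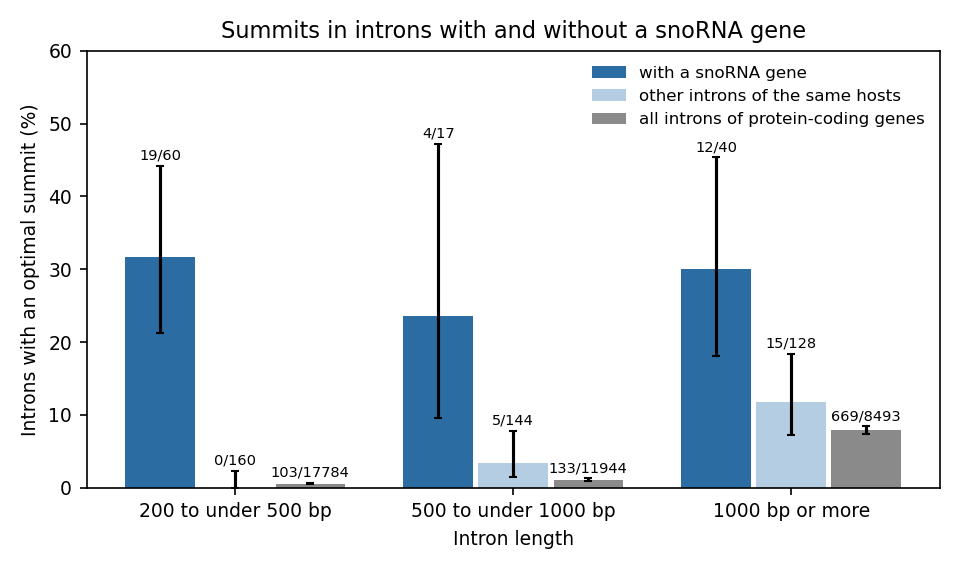
Share of introns with an optimal summit (y axis, percent) in 3 classes of intron length (x axis), for introns with a snoRNA gene, other introns of the same host genes and all introns of protein-coding genes. Overlapping introns are counted once in the first 2 sets, error bars are 95% Wilson intervals, and numbers are introns with a summit and in all. From 200 to under 500 bp the shares are 31.7%, 0 and 0.579%.

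Host genes differed in where the peak lay. Hosts were grouped by symbol alone (rpl-, rps- or rla- for cytosolic ribosomal proteins), so ubl-1 was counted among the other hosts. The 13 host genes so named for cytosolic ribosomal proteins each had an optimal summit in their own promoter window, against 11.5% of all protein-coding genes. None of the 19 snoRNA genes in their introns had an optimal summit. Among these 19 was 1 gene with a relaxed summit, Y43B11AR.7 in rps-4, with a pooled signal of 38.8. The translation factor genes iff-2 and eef-1G also had a promoter summit each and no optimal summit at their 3 snoRNA genes. Of the 115 other hosts, 31 had a promoter summit, and the 115 together held 128 snoRNA genes, 26 of them with an optimal summit. Over all intronic genes, 5 of 64 with a host promoter summit and 21 of 86 without one had an optimal summit at the snoRNA gene.

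The proteins that work with snoRNAs were examined at their own genes. Of 11 such genes, 9 had an optimal summit in the promoter window (81.8%), against the 11.5% above. The strongest was at fib-1, for the methyltransferase fibrillarin, with a pooled signal of 692 and replicate signals of 317 and 377, followed by the assembly ATPase gene ruvb-1 with 448, 231 and 225. The other box C/D proteins had 165 at nol-58 (replicates 84.5 and 82.0), 145 at nol-56 (81.9 and 63.1) and 100.5 at snu-13 (38.2 and 60.8). Of the H/ACA proteins, Y48A6B.3 (NHP2) had 177 (74.8 and 98.4), the pseudouridine synthase gene dkc-1 146 (71.8 and 78.6) and nola-3 (NOP10) 125 (75.02 and 53.9). The second assembly ATPase gene, ruvb-2, had 145 (73.5 and 68.7). Weaker relaxed summits alone were found at garr-1 (GAR1), with 49.5, and at dao-5, a nucleolar phosphoprotein gene, with 73.4. A summit in such a window can also lie nearer to another gene.

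The letters of tRNA promoters were found upstream of many of the snoRNA genes with a summit. The box B core GTTCNANNC, with 6 fixed letters of 9, was searched from 100 bp upstream of the 5′ end to 20 bp inside the gene on the gene strand, and was chosen after the first results were seen. It was present at 26 of the 71 genes with an optimal summit (36.6%), at 3 of the 56 with a relaxed summit only (5.36%) and at 9 of the 219 with no pooled summit (4.11%). On the other strand it was at 0 of the 71. The same window at protein-coding starts held it in 358 of 19973 cases (1.79%) on the gene strand and in 1.38% on the other. Starts of other short RNA genes held it more often on the gene strand, at 12 of 129 snRNA genes (9.30%, 0 on the other strand) and 11 of 261 miRNA genes (4.21%, 3.83% on the other strand), beside 38 of all 346 snoRNA genes. In the bodies of tRNA genes it was present in 587 of 612 (95.9%).

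Read the other way, 26 of the 38 snoRNA genes with the box B core had an optimal summit (68.4%, interval 52.5% to 80.9%), against 45 of 308 without it (14.6%, interval 11.1% to 19.0%). The share was 16 of 22 for independent genes with the core and 10 of 16 for intronic ones, against 29 of 174 and 16 of 134 without it. The letters of the full box B consensus, which is longer, were present at 8 snoRNA genes, 7 of them with an optimal summit. The median signal was 222.1 with the core (range 110 to 568) and 158.4 without it (range 90.7 to 750), so the ranges overlapped widely.

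**Figure D5:**
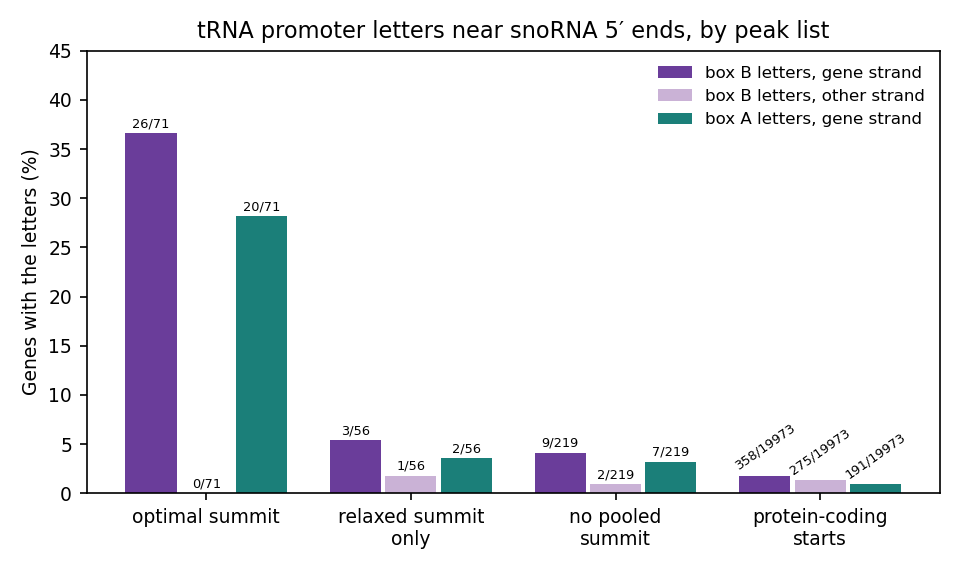
Share of genes (y axis, percent) with the box B core on the gene strand, on the other strand, and with the box A core on the gene strand, from 100 bp upstream to 20 bp inside the gene. The groups are snoRNA genes with an optimal summit, with a relaxed pooled summit only and with no pooled summit, and protein-coding starts, with counts above the bars. The gene-strand box B share is 36.6% in the first group and 4.11% at snoRNA genes with no pooled summit.

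The box A core TGGCNNAG, searched in the same window and also chosen after seeing the data, was found at 20 of the 71 genes with an optimal summit (28.2%) and at 9 of the 275 without one (3.27%). It was at 0.956% of protein-coding starts. Only 17.6% of tRNA gene bodies match these letters, so this core is narrower than box A as tRNA genes use it. Both cores occurred together at 14 snoRNA genes, 12 of them with an optimal summit (85.7%, interval 60.1% to 96.0%), and neither occurred at 293, of which 37 had one (12.6%). In all, 34 of the 71 genes had at least 1 of the cores, 15 of the 26 intronic and 19 of the 45 independent ones.

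At the 26 genes with an optimal summit and the box B core, the summit lay within 64 bp of the first base of the core. The first base of the core was 44 to 5 bp upstream of the 5′ end at the 26 genes with a summit, with a median of 14 bp upstream, taking the match nearer to the gene where there was more than 1. Relative to that base the summit had a median of -26 bp, with a range of -64 to 14 bp and an SD of 17.5 bp. The summits at genes with the core were at -78 to -6 bp from the 5′ end (SD 18.8), a narrower spread than the -189 to 238 bp at genes without it (SD 71.3). At C51F7.3 the letters occur at 2 places, which lie in the neighbouring gene C51F7.4.

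A run of at least 4 T in the 15 bases after the gene was present at 47 of the 71 genes with an optimal summit (66.2%) and at 79 of the 275 without one (28.7%), and at 21 of the 26 intronic genes with a summit. This feature was also chosen after seeing the data. Among genes with both the box B core and the T run, 23 of 32 had an optimal summit (71.9%). The share was 3 of 6 with the core alone, 24 of 94 with the T run alone (25.5%) and 21 of 214 with neither (9.81%). The 22 snoRNA genes in ribosomal protein and translation factor hosts held neither core, and 6 of them had a T run.

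Several snoRNA genes carried the box B letters without an optimal summit. There were 12, and they were looked at after their values were seen. They include the intronic genes F46F11.12, F25H5.9, R166.7, C06A1.8, C02F5.15 and T23G5.7. All 3 genes with the letters on X, Y59E1B.14, C53B7.8 and T27A8.9, had no pooled summit, and C53B7.8 had a summit of signal 26.8 in replicate 2 only.

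Short snoRNA genes carried summits most often. Of the 56 genes of at most 80 nt, a class set after seeing the data, 29 had an optimal summit (51.8%, interval 39.0% to 64.3%). The share was 5 of 56 above 80 and up to 110 nt (8.93%), 26 of 124 above 110 and up to 150 nt (21.0%) and 11 of 110 above 150 nt (10.0%). Genes ending in box D letters (CTGA within the last 15 nt), which mark methylation guides, had an optimal summit in 29 of 77 cases (37.7%), and genes with ACA in the last 8 nt, as in pseudouridylation guides, in 23 of 93 (24.7%). Genes with neither had one in 23 of 189 cases (12.2%). The box C letters (A or G, then TGATGA, within the first 20 nt) were found at 5 of the 71 genes with an optimal summit (7.04%) and at 12 of the 275 without one (4.36%). Looser letters chosen after seeing the data, TGANGA in the same stretch, were at 17 of the 71 (23.9%) and at 25 of the 275 (9.09%). Such short motifs also occur by base composition alone, and the box D and ACA classes share 13 genes. Length was not separate from the other features. Of the 56 short genes, 15 had the box B core (26.8%), 37 a T run (66.1%) and 34 the box D letters (60.7%). Of the 290 longer genes, 23 (7.93%), 89 (30.7%) and 43 (14.8%) did. The ACA letters went the other way, at 4 of the 56 (7.14%) and 89 of the 290 (30.7%). Whether each feature by itself goes with summits was not tested.

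Letters known for other promoters or for homeodomains were found at few of these genes. TATAAA lay on the gene strand in the same window at 2 of the 71 genes with an optimal summit (2.82%) and at 24 of the 275 without one (8.73%), and in 13.5% of protein-coding starts. TAATTG, a core bound by many homeodomains, was at 1 of the 71 on each strand (1.41%), against 838 of 19973 protein-coding starts on the gene strand. TAAACG, which Bar-class homeodomains are known to bind, differed the other way on the gene strand. It was at 5 of the 71 genes with an optimal summit (7.04%), against 5 of the 275 without one (1.82%) and 1.95% of protein-coding starts. All 5 were among the 49 genes whose summit lay outside protein-coding promoter windows (10.2%). On the other strand it was at 3 of the 71 (4.23%), 5 of the 275 (1.82%) and 2.85% of protein-coding starts. These counts are small and were not tested.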

How the data were processed

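Peaks of CEH-31-eGFP ChIP-seq were taken as deposited by the authors on ce11 (WBcel235): an optimal, a pooled and 2 replicate lists. Their signal column holds a score per peak deposited by the authors, with no stated scale. Not given in the sources used here were the aligner, peak caller and threshold. The lists hold no read counts, so depth is unknown. Summits (start plus offset) were intersected with Ensembl 115 genes extended by 200 bp, using Python 3.11.15 and pandas 2.3.3, and the code was checked on planted summits. Shares carry 95% Wilson intervals, and no test was made. Sequence letters were searched in the RefSeq genome. A motif match is a description, not a site. The genes named are the 12 strongest of each kind, the 3 strongest of each kind without an optimal summit, those at the 200 bp limit and the snoRNA protein genes, and any others were chosen after their values were seen. The members and lists were chosen with earlier results of these data known. The ce10 lists were not used.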

Additional observations from a re-analysis of the deposited data

How the results depend on the processing

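With no extension 4 snoRNA genes held an optimal summit (1 intronic, 3 independent), and with the relaxed pooled list 127 did (44 and 83). Extensions of 100 and 500 bp gave 64 and 89. The stronger 50% of the optimal list left 48, of which 16 intronic, and 26 of the genes without the box B core. With the strongest peaks of 1 replicate in place of the optimal list the count was 70 to 71, intronic 25 and independent 45 to 46. The median signal of 202.3 over distinct peaks was 85.6 over all pooled summits and 46.1 to 49.5 over all summits of a single replicate list, and these lists hold weaker peaks. Windows with a summit in both replicates numbered 99, and 64 with the strongest peaks alone. The full box B letters left 7 genes with a summit in place of 26. The alternatives for box B and for overlapping introns were chosen after seeing the data. The cause of these changes was not tested, beyond the fewer bases, peaks or letters that each alternative admits. The other 46 counts kept within 1.5 times of their main count. No paired analysis was possible because there is 1 group. Depth is unknown, so a missing summit says nothing of absence.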
